A study of Mus musculus with 6 samples.

Results

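The genes of the WAVE complex and of N-WASP were taken as the rows of the deposited expression table whose symbol was Wasf1, Wasf2, Wasf3, Wasl, Cyfip1, Cyfip2, Nckap1, Abi1, Abi2 or Brk1. All 10 were found among the 27179 genes of the table, 9 of them subunits of the WAVE complex and 1, Wasl, the gene of N-WASP. RNA was sequenced from cerebral cortex of C57BL/6N mouse embryos late in gestation (E18.5). Control embryos were Cap1 flx/flx, with both Cap1 alleles flanked by recombination sites and no Cre (libraries FF1, FF2 and FF4). CAP1-KO embryos were Cap1flx/flx,Nestin-CRE, with the same alleles plus Nestin-driven Cre, a recombinase made in neural progenitors, so that their daughter neurons and glia lose Cap1 while microglia, which arise outside the neural lineage, are not a target (libraries FCRE3, FCRE4 and FCRE5). Effects of Cre itself and of Cap1 loss cannot be told apart, since no Cre-only embryos were compared. The labels call the libraries biological replicates and name no litter or sequencing run.

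WAVE proteins and N-WASP switch on the Arp2/3 complex, which starts a new actin filament as a branch on the side of an existing filament. A WAVE complex holds a single member each of the WAVE (Wasf1, Wasf2 or Wasf3), CYFIP (Cyfip1 or Cyfip2) and ABI (Abi1 or Abi2) families together with Nckap1 and Brk1, and it is kept inactive until the GTPase Rac binds its CYFIP subunit. N-WASP is opened by the GTPase Cdc42 and is carried by partner proteins of the WIP family. In neurons these activators shape growth cones, axon branches and dendritic spines, and CYFIP1 also binds the fragile X protein FMRP. CAP1, the protein of the gene targeted in the mutants, helps to take actin filaments apart and to recharge actin monomers. Its protein level was not measured here. The series title names genes controlled by MRTF and SRF. SRF is a transcription factor that binds the CArG box and whose coactivators are held back by actin monomers.

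The start regions of the paralogs Wasf1, the member with the largest difference between groups, and Wasf2 are shown because the study concerns SRF and its CArG box. Both runs are the 250 bases before a transcript start, which in both genes lies a little inside the outermost annotated start, 5′ to 3′ on the coding (plus) strand of GRCm38.p6, from RefSeq, at chr10:40883284-40883533 for Wasf1 and chr4:133130383-133130632 for Wasf2. Capitals mark a GC box, searched as GGGCGG on either strand (CCGCCC on the strand printed).
Wasf1: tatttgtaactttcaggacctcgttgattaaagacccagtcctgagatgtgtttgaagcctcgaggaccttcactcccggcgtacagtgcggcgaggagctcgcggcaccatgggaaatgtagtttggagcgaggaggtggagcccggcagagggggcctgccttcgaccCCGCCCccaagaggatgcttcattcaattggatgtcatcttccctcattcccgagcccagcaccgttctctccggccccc
Wasf2: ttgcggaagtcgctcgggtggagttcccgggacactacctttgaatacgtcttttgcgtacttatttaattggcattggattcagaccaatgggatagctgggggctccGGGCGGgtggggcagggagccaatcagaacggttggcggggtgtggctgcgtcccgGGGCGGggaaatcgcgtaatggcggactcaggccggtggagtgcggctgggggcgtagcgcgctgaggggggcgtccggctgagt
RefSeq windows of 300 bases (250 before and 50 after a start) were found for 7 of the 10 members, with 8 windows in all. The members without one were Abi2, Cyfip1 and Nckap1. None of the 8 windows held the CArG box, which 1.63% of all 32851 windows held. A GC box was found in the windows of 4 members, Wasf1, Wasf2, Wasl and Cyfip2, against 35.7% of all windows. A match, or its lack, describes these letters in these windows only.

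Depth ran from 32443864 reads in FF4 to 36302598 in FCRE3. Cap1 measured 194, 193 and 166 CPM (the deposited normalized counts after antilog) in FF1, FF2 and FF4 and 86.6, 85.9 and 82.9 CPM in FCRE3, FCRE4 and FCRE5, a log2 fold change of -1.10 (limma adjusted p = 0.000283). Under the authors' normalization the CPM summed to 1041924 and 1048878 in FF1 and FF2 and to 973226 to 982034 in the other 4 libraries, so the totals were not equal. FF4 stood apart from the other Control libraries. Over 13885 genes tested, the median absolute difference on log2(CPM + 1) was 0.063 between FF1 and FF2. It was 0.13 between FF4 and each of them, and 0.072 to 0.11 between FF4 and the CAP1-KO libraries. FCRE4 in turn lay nearer to FF4 (0.072) than to FCRE5 (0.088) or FCRE3 (0.10), while FCRE3 and FCRE5 differed by 0.070. Xist, which is made from the silenced X of females, stood at 0.58 and 2.05 CPM in FF1 and FF4, but at 2296 CPM in FF2 and 2398 to 2653 CPM in CAP1-KO, so embryo sex was not balanced. Results are therefore also given without FF4 and against FF2 alone.

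No gene of the WAVE complex and not N-WASP passed the test between CAP1-KO and Control, although most were numerically lower. The test was limma on log2(CPM + 1) with a Benjamini-Hochberg adjusted p under 0.05 over all genes tested, and 0 of the 10 members rose (0.562% of all genes did) and 0 fell (0.403% did). At an unadjusted p under 0.05, 4 members were lower (Wasf1, Cyfip2, Abi2 and Wasf3) and 0 higher, where 15.3% of all genes were lower by that measure. In 5 members, Wasf1, Wasf3, Cyfip2, Nckap1 and Abi2, the highest CAP1-KO library was lower than the lowest Control one, as in 14.6% of all genes. In whole cortex, fewer cells of a type and less RNA per cell cannot be told apart. The median log2 fold change was -0.13 over the 10 members and -0.0059 over all genes tested. Scaled to total reads, these medians were -0.069 and 0.056, and 2 members were lower at an unadjusted p under 0.05, where 10.7% of all genes were lower and 14.7% higher (with the authors' normalization, 15.3% and 7.74%). With limma-voom on recovered reads 0 members were called in either direction, and the authors' deposited table gives all 10 an FDR between 0.126 and 1. FF4 was the lowest Control library in 8 of the 10 members, all but Abi1 and Brk1. It was nearer the CAP1-KO mean than the mean of FF1 and FF2 in 8 as well, here all but Wasf3 and Abi1. Brk1 counts among these although its libraries all lay close together. The shares of all genes that meet these 2 measures were not computed. Over all genes tested FF4 was also nearer the CAP1-KO libraries than FF1 and FF2 in the median difference, so neither count is particular to the members. Without FF4, 5 members fell (Wasf1, Cyfip2, Nckap1, Wasl and Abi2) where 18.9% of all genes did. Against FF2 alone, 3 fell (Wasf1, Cyfip2 and Nckap1) where 8.53% of all genes did, with the lone Control library assumed to vary like the CAP1-KO libraries. Against FF4 alone, the largest difference among the members was that of Wasf1, -0.22.

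**Figure D1:**
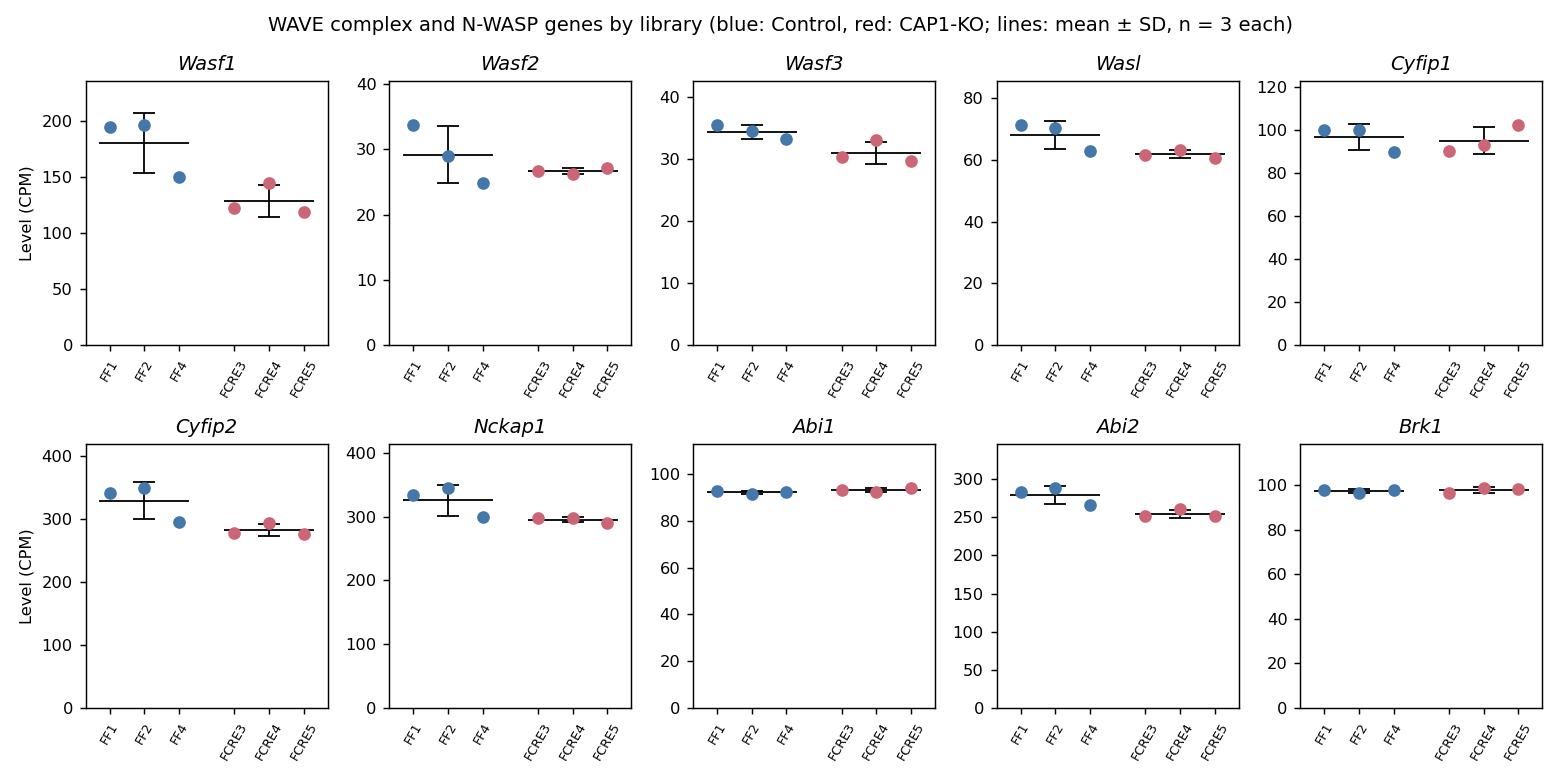
Level of each member in CPM (vertical axis from 0) in the 3 Control (blue) and 3 CAP1-KO (red) libraries, with the group mean and SD as lines. The 6 libraries of Abi1 and of Brk1 lie close together, while Wasf1 spans 119 to 196 CPM and FF4 lies below FF1 and FF2 in 8 panels.

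Wasf1 encodes WAVE1, the WAVE protein most abundant in brain (gene number 83767, GRCm38 chromosome 10, 40883480 to 40938569). It measured 195 CPM in FF1, 196 in FF2 and 149.5 in FF4, and 122 in FCRE3, 145 in FCRE4 and 119 in FCRE5. The groups did not overlap, but FF4 and FCRE4 were separated by less than 5 CPM. The means were 180.1 ± 26.5 CPM in Control against 129 ± 14.2 CPM in CAP1-KO (SD, n = 3 each), 71.4% of the Control mean. The log2 fold change of -0.48 (SE 0.12, 95% interval -0.76 to -0.20) did not pass (limma adjusted p = 0.0971). It was -0.61 without FF4 (limma adjusted p = 0.000883) and -0.61 against FF2 alone (limma adjusted p = 0.0165), and these were the only 2 of 15 alternatives in which Wasf1 was called. The adjusted p over those alternatives ran from 0.000883 to 0.658, the highest being against FF4 alone.

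Wasf2 encodes WAVE2, the form found broadly outside neurons (gene number 242687, chromosome 4, 133130531 to 133199748), and had the fewest reads of the members. It measured 33.7, 29.0 and 24.9 CPM in FF1, FF2 and FF4 and 26.6, 26.2 and 27.1 CPM in FCRE3, FCRE4 and FCRE5. All 3 CAP1-KO libraries lay inside the range of Control. The spread of Control, 15.1% of its mean, was well above the counting error of its lowest library (823 reads, 3.49%). Its log2 fold change was -0.12 (95% interval -0.35 to 0.12, limma adjusted p = 0.528), and it was -0.011 without FF1, -0.22 without FF4 and 0.096 against FF4 alone.

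Wasf3 encodes WAVE3, also a form of the nervous system (gene number 245880, chromosome 5, 146385006 to 146473615). It measured 35.5, 34.4 and 33.2 CPM in FF1, FF2 and FF4 and 30.3, 33.0 and 29.7 CPM in FCRE3, FCRE4 and FCRE5. The groups did not overlap, and FCRE4 again lay next to FF4. The log2 fold change was -0.15 (95% interval -0.29 to -0.0063, limma adjusted p = 0.200), and it passed in none of the 15 alternatives.

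Wasl encodes N-WASP, the activator that answers to Cdc42 (gene number 73178, chromosome 6, 24613810 to 24664995). It measured 71.2, 70.2 and 62.8 CPM in FF1, FF2 and FF4 and 61.6, 63.1 and 60.5 CPM in FCRE3, FCRE4 and FCRE5. FF4 lay among the CAP1-KO libraries, below FCRE4, so the groups overlapped. The means were 68.1 ± 4.62 CPM and 61.7 ± 1.30 CPM (SD, n = 3 each), with a log2 fold change of -0.14 (95% interval -0.27 to 0.00039, limma adjusted p = 0.218). Without FF4 it was -0.19 (limma adjusted p = 0.0134), and against FF4 alone -0.024.

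The CYFIP subunits carry the Rac binding sites, and neither passed. Cyfip2 (gene number 76884, chromosome 11, 46193849 to 46312859) measured 341, 349 and 295 CPM in FF1, FF2 and FF4 and 277, 293 and 276 CPM in FCRE3, FCRE4 and FCRE5. Its groups did not overlap, with FF4 just above FCRE4, and its log2 fold change was -0.21 (SE 0.071, 95% interval -0.38 to -0.049, limma adjusted p = 0.141). Without FF4 it was -0.29 (limma adjusted p = 0.00161), against FF2 alone -0.30 (limma adjusted p = 0.0227), and against FF4 alone -0.065. Cyfip1 (gene number 20430, chromosome 7, 55842022 to 55932633) measured 100.2, 100.4 and 90.0 CPM in FF1, FF2 and FF4 and 90.3, 93.0 and 102 CPM in FCRE3, FCRE4 and FCRE5. The highest of its 6 libraries was FCRE5 and the lowest FF4, and the groups overlapped throughout. The log2 fold change was -0.024 (95% interval -0.18 to 0.13, limma adjusted p = 0.860), and its sign changed with the scaling to total reads, where it was 0.042.

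Nckap1 encodes the scaffold that holds CYFIP in the complex (gene number 50884, chromosome 2, 80500512 to 80581182). It measured 334, 345 and 299 CPM in FF1, FF2 and FF4 and 298, 297 and 290.3 CPM in FCRE3, FCRE4 and FCRE5. FF4 and the CAP1-KO libraries lay within 10 CPM of each other, and FF1 and FF2 stood above them. The log2 fold change was -0.14 (95% interval -0.28 to 0.0035, limma adjusted p = 0.226). It was -0.20 without FF4 (limma adjusted p = 0.00576), -0.23 against FF2 alone (limma adjusted p = 0.0401) and -0.018 against FF4 alone.

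The ABI subunits join the complex to the Abl kinases. Abi2 (gene number 329165, chromosome 1, 60405768 to 60481945) measured 283, 289 and 266 CPM in FF1, FF2 and FF4 and 252, 261 and 252 CPM in FCRE3, FCRE4 and FCRE5. The groups did not overlap, and the log2 fold change was -0.13 (95% interval -0.25 to -0.017, limma adjusted p = 0.170). It was -0.17 without FF4 (limma adjusted p = 0.0144), the only alternative in which Abi2 passed. Abi1 (gene number 11308, chromosome 2, 22940073 to 23040241) measured 92.8, 91.3 and 92.5 CPM in FF1, FF2 and FF4 and 93.1, 92.4 and 94.2 CPM in FCRE3, FCRE4 and FCRE5. All 6 libraries lay within 3 CPM, FF4 included. The log2 fold change was 0.016 (95% interval -0.077 to 0.11, limma adjusted p = 0.846), so the interval held changes between 94.8% and 108% of the Control level.

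Brk1 encodes the smallest subunit of the complex (gene number 101314, chromosome 6, 113604772 to 113616951), and it had the smallest spread of the members in Control. It measured 97.8, 96.5 and 97.8 CPM in FF1, FF2 and FF4 and 96.3, 98.8 and 98.3 CPM in FCRE3, FCRE4 and FCRE5. Its spread was 0.734% of the mean in Control and 1.37% in CAP1-KO, at or below its counting error of 1.81% in the library with fewest reads. The log2 fold change was 0.0064 (95% interval -0.087 to 0.099, limma adjusted p = 0.941), an interval from 94.2% to 107% of the Control level. Brk1 and Abi1 were the members whose FF4 value stood nearest to FF1 and FF2, at 100.6% and 100.4% of their mean, against 76.5% for Wasf1.

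**Figure D2:**
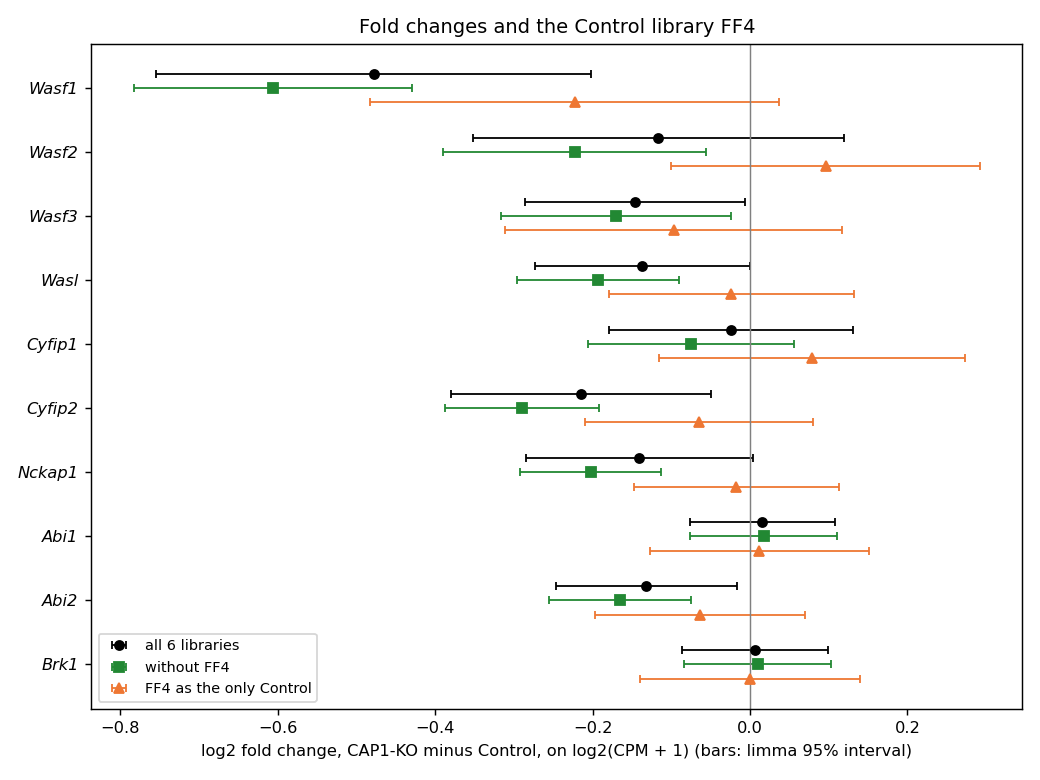
Log2 fold change of each member (horizontal axis, CAP1-KO minus Control on log2(CPM + 1), bars the limma 95% interval) with all 6 libraries (black), without FF4 (green) and with FF4 as the only Control library (orange). Wasf1 lies at -0.48, -0.61 and -0.22 in that order, and Abi1 and Brk1 stay near 0 in all 3.

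Scaled to length, Brk1 was the most abundant member and Wasf2 the least. Levels were divided by the summed length of annotated exons (GENCODE M21), since counts of genes of different length cannot be compared. Brk1 stood at 88.9 ± 0.65 CPM per kb in Control (SD, n = 3), followed by Nckap1 (65.7 ± 4.90), Wasf1 (63.1 ± 9.28), Cyfip2 (46.2 ± 4.09), Abi2 (32.7 ± 1.37) and Abi1 (22.9 ± 0.19). Wasl (11.04 ± 0.75), Cyfip1 (8.11 ± 0.50), Wasf3 (6.61 ± 0.22) and Wasf2 (4.66 ± 0.71) were lower. In Control only the neighbours Nckap1 and Wasf1 overlapped in their libraries, and in CAP1-KO, where the order was the same, none did. There Nckap1 stood at 59.4 ± 0.85 and Wasf1 at 45.0 ± 4.98 CPM per kb (SD, n = 3), and the lowest Wasf1 library (41.5) was just above the highest of Cyfip2 (41.3). With the longest coding transcript as the length, Cyfip1 stood at 15.0 CPM per kb beside Wasl at 15.6 in Control, and Abi2 at 48.4 beside Cyfip2 at 49.3, so the order within these pairs of neighbours was not settled.

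**Figure D3:**
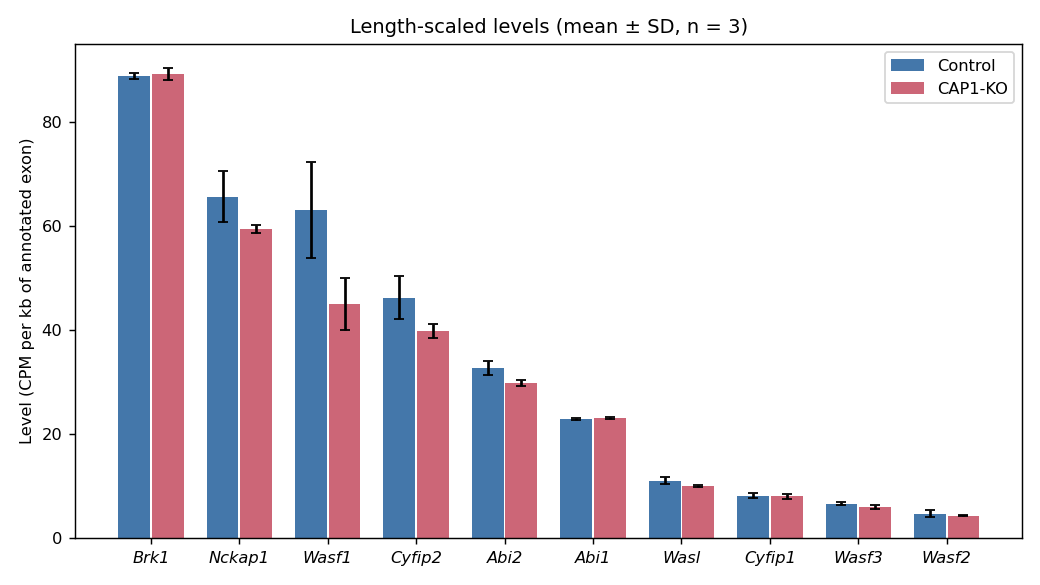
Level per kilobase of annotated exon (vertical axis, CPM per kb) of each member in Control (blue) and CAP1-KO (red), bars the mean and error bars the SD of 3 libraries. Brk1 at 88.9 CPM per kb in Control is highest and Wasf2 at 4.66 is lowest.

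The shares of the paralogs in each family are given next, with no test of their own. On the same length scale, Wasf1 made up 84.7 ± 1.22% of WAVE transcripts in Control and 81.4 ± 1.22% in CAP1-KO, Wasf3 8.98 ± 1.04% and 10.8 ± 0.40%, and Wasf2 6.27 ± 0.46% and 7.76 ± 0.82% (SD, n = 3 each). Cyfip2 made up 85.1 ± 0.38% of CYFIP transcripts in Control and 83.3 ± 1.18% in CAP1-KO, and Abi2 58.8 ± 1.14% and 56.3 ± 0.72% of ABI transcripts (SD, n = 3 each). With the longest coding transcript as the length, the Cyfip2 share was 76.6% and 74.1%, and the shares depend on the length chosen.

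The difference between groups in a ratio of paralogs depends neither on the scaling between libraries nor on length, and 4 such ratios of CPM were compared. The log2 ratio of Wasf2 to Wasf1 was -2.53, -2.76 and -2.59 in FF1, FF2 and FF4 and -2.20, -2.47 and -2.13 in FCRE3, FCRE4 and FCRE5. The difference of 0.36 left no overlap between groups, with FCRE4 nearest to Control. Wasf3 to Wasf1 stood at -2.46, -2.51 and -2.17 in Control and -2.01, -2.13 and -2.00 in CAP1-KO in the same order of libraries, a difference of 0.33. FF4 and FCRE4 were neighbours here too. Cyfip1 to Cyfip2 was -1.77, -1.80 and -1.71 in Control and -1.62, -1.66 and -1.43 in CAP1-KO, a difference of 0.19, or 0.12 without FCRE5. Abi2 to Abi1 was 1.61, 1.66 and 1.53 in Control and 1.43, 1.497 and 1.42 in CAP1-KO, a difference of -0.15. In none of the 4 did the groups overlap, and each had the smallest value that an exact two-sided permutation test of 3 against 3 libraries can give (p = 0.1, and p = 0.1 adjusted over the 4 ratios), so none could pass a threshold of 0.05. The first and the second ratio share Wasf1 and are not independent, and a ratio shows unequal change only. How often the groups are apart in ratios of other genes was not measured. Among single genes, 14.6% had all CAP1-KO libraries below Control and 11.1% had all above.

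**Figure D4:**
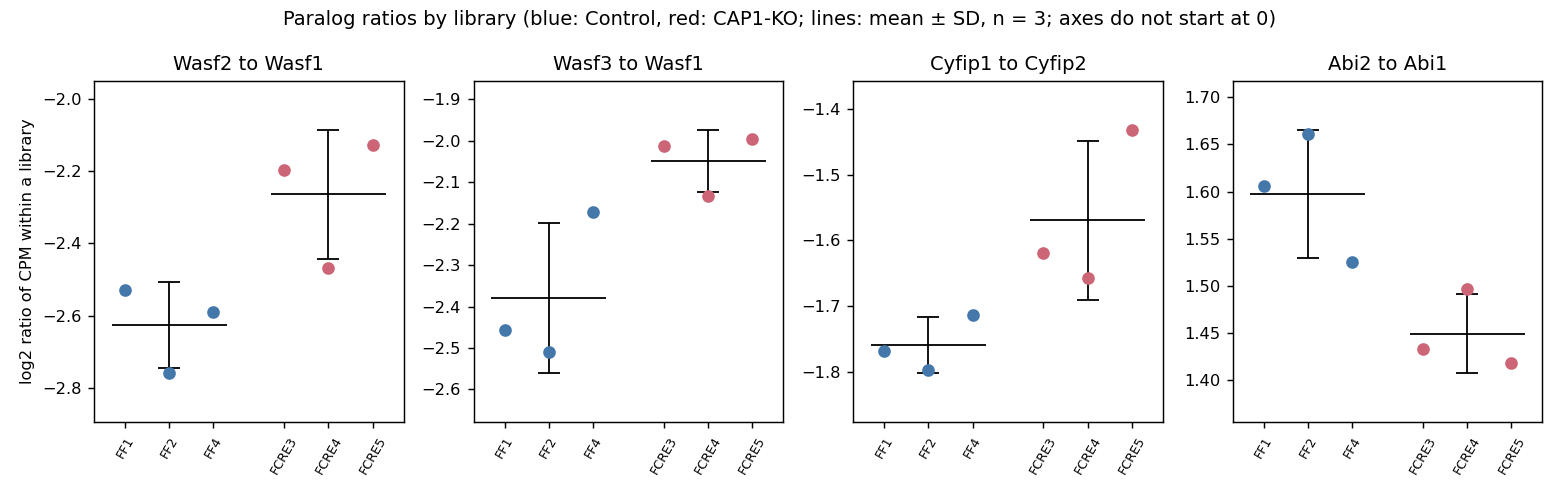
Log2 ratio of CPM between paralogs within each library (vertical axes, not starting at 0) for Control (blue) and CAP1-KO (red), with group means and SD as lines. The Control libraries lie on 1 side of all CAP1-KO libraries in each panel, and FCRE4 is the CAP1-KO library nearest to Control in all 4.

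Among the genes that act with these activators, 1 partner of N-WASP fell and 1 Arp2/3 subunit rose. Of 32 upstream regulators and partners, all tested, 0 rose and 1 fell (limma; of all genes 0.562% rose and 0.403% fell), with a median log2 fold change of -0.16 and 12 lower at an unadjusted p under 0.05, where 15.3% of all genes were lower. The gene that fell was Wipf3, a member of the WIP family that binds N-WASP. Wipf3 measured 42.9, 43.3 and 39.6 CPM in FF1, FF2 and FF4 and 29.5, 33.6 and 31.3 CPM in FCRE3, FCRE4 and FCRE5. FF4 lay with the other Control libraries, and the groups were clearly apart. Its log2 fold change was -0.40 (SE 0.065, limma adjusted p = 0.0390), and 8 of 15 alternatives called it too. Over all 15 its value ran from -0.45 to -0.32, and the highest adjusted p was 0.448. The call was lost when all genes were tested without the filter, with Xist as a covariate, against FF4 alone and without FF1, FF2, FCRE3 or FCRE5. The authors' deposited table gives Wipf3 an FDR of 0.0212.

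The GTPases that open the activators were not called with all 6 libraries. Rac1 and Cdc42 were singled out for that role after their values were seen. Rac1 measured 267, 261 and 225 CPM in FF1, FF2 and FF4 and 207, 220 and 202 CPM in FCRE3, FCRE4 and FCRE5, with a log2 fold change of -0.26 (limma adjusted p = 0.114). As in Wasf1, FF4 lay next to FCRE4. Cdc42 averaged 457 ± 19.3 CPM in Control against 482 ± 6.13 CPM in CAP1-KO (SD, n = 3 each; log2 fold change 0.075, limma adjusted p = 0.422). Without FF4, 1 gene of the 32 was called higher and 18 lower, where 9.36% of all genes were called higher and 18.9% lower. Rac1 was among the 18, and Cdc42 was not called.

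Of the 10 Arp2/3 subunits, the complex on which WAVE and N-WASP act, 1 rose and 0 fell (limma; of all genes 0.562% rose and 0.403% fell), and 2 were higher and 1 lower at an unadjusted p under 0.05 (of all genes 7.74% and 15.3%). With total reads 2 were called higher, where 0.749% of all genes were. Without FF4 2 were called higher and 1 lower, where 9.36% and 18.9% of all genes were. Arpc5 measured 214, 209 and 200.4 CPM in FF1, FF2 and FF4 and 323, 327 and 314 CPM in FCRE3, FCRE4 and FCRE5 (log2 fold change 0.63, limma adjusted p = 0.000939), and it kept its call in all 15 alternatives. The median of the 10 subunits was 0.020. Among 12 other promoting factors and blood-cell paralogs of the members, 10 were tested and 0 were called (limma; at an unadjusted p under 0.05, 1 was higher and 2 lower). The tested genes of that list with the largest differences were Nckap1l and Jmy, an activator with its own nucleation activity. Jmy averaged 115 ± 17.8 CPM in Control against 90.0 ± 3.51 CPM in CAP1-KO (SD, n = 3 each; log2 fold change -0.33, limma adjusted p = 0.135). FF4 (94.1 CPM) lay next to FCRE4 (94.0 CPM). Without FF4 Jmy was called lower, where 18.9% of all genes were. Of 5 inhibitors and debranching factors, 4 were tested and 0 were called (limma, 0 at an unadjusted p under 0.05 in either direction), and the largest differences were those of Arpin, an Arp2/3 inhibitor (0.12), and Gmfb, which releases branches (0.093).

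**Figure D5:**
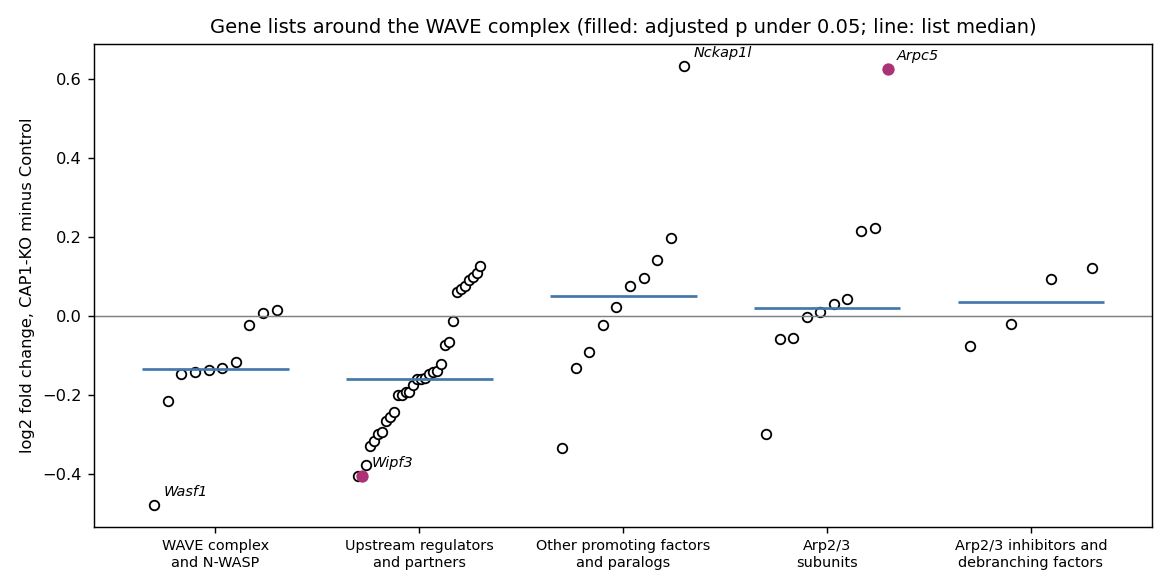
Log2 fold change (vertical axis, CAP1-KO minus Control) of every tested gene of the members and of 4 lists around them, filled where the limma adjusted p is under 0.05, with the list median as a line. Wipf3 at -0.40 and Arpc5 at 0.63 are the filled points, and Wasf1 at -0.48 is open.

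Markers of the cell types that the tissue holds were summed per library. Neuronal markers (6 of 6 found) summed to 5540 to 5923 CPM in Control, FF4 lowest, and to 5255 to 5426 CPM in CAP1-KO. In 3 of the 6 the groups were apart with CAP1-KO lower, as in 14.6% of all genes, and 0 were called (limma). Radial glia markers (7 of 7) summed to 1158 to 1276 CPM in Control and 1250.2 to 1299 CPM in CAP1-KO. Striatal markers (6 of 6) summed to 218 CPM in FF4, against 159.9 and 165 CPM in FF1 and FF2 and 182 to 192 CPM in CAP1-KO. The sum joined 2 markers with all CAP1-KO libraries lower and 1 with all higher (of all genes 14.6% and 11.1%). Ppp1r1b fell (45.4 ± 2.19 CPM in Control against 29.1 ± 2.10 CPM in CAP1-KO, SD, n = 3 each; limma adjusted p = 0.00689). Markers of oligodendrocyte precursors (5 of 5) summed to 161 to 175 CPM in Control, just above the 125 to 161 CPM of CAP1-KO. The part of these shifts in the values of the members was not tested.

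Nckap1l, the paralog of Nckap1 in blood cells and microglia, and the microglial markers were both numerically higher in CAP1-KO. Nckap1l measured 2.82, 2.11 and 2.96 CPM in FF1, FF2 and FF4 and 4.40, 4.85 and 4.58 CPM in FCRE3, FCRE4 and FCRE5 (log2 fold change 0.63, limma adjusted p = 0.0591), and it did not pass. Without FF4 it was called higher, where 9.36% of all genes were. The authors' deposited table gives it an FDR of 0.0513. Microglial markers (10 of 10 found) summed to 57.7 to 74.8 CPM in Control and 86.4 to 108 CPM in CAP1-KO. In 7 of the 10 the CAP1-KO libraries all lay above Control, as in 11.1% of all genes. Whether that shift accounts for the level of Nckap1l was not tested. Endothelial markers (6 of 6) summed to 86.6 to 102 CPM in Control and 70.3 to 77.9 CPM in CAP1-KO. The CAP1-KO libraries all lay below Control in 3 of the 6, as in 14.6% of all genes, and Flt1 fell (limma adjusted p = 0.0118). Choroid plexus markers (5 of 5 found, 3 tested) summed to 0.48 to 4.02 CPM in Control and 50.8 to 111 CPM in CAP1-KO. In 2 of the 3 tested the CAP1-KO libraries all lay above Control, as in 11.1% of all genes. Of them only Ttr was called, and it rose (limma adjusted p = 0.000103). Meningeal markers (6 of 6 found, 5 tested) summed to 11.6 to 13.3 CPM in Control and 11.4 to 75.9 CPM in CAP1-KO. No marker of any list was at 0 in all 6 libraries.

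The 3 tested genes whose pattern over the 6 libraries was most like that of Wasf1 were Zc3h7b, Slc6a17 and Cmip. Likeness was the mean absolute difference between genes after each was centred and divided by its own SD, and it was 0.032, 0.033 and 0.043 SD in that order over 13884 genes compared. Zc3h7b averaged 358 ± 49.7 CPM in Control against 262 ± 22.8 CPM in CAP1-KO (SD, n = 3 each; log2 fold change -0.44, limma adjusted p = 0.0957). Slc6a17, a transporter of synaptic vesicles, had a log2 fold change of -0.36 (limma adjusted p = 0.0946) and Cmip one of -0.40 (limma adjusted p = 0.0974). None of the 3 passed. With 6 libraries and so many genes, near matches of this kind are a description only.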

How the data were processed

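Poly(A) RNA was sequenced with strand-specific libraries, per the labels' protocols, in 3 Control and 3 CAP1-KO samples. The submitters' processing notes name STAR, edgeR, GRCm38 and mm10; the read counter and annotation were not given in the sources used here. Normalized counts on a log2 scale were deposited for each library, per the file headers. The deposited results of the authors' own test are a p-value, an FDR, an F score, a log2 fold change and a mean level. Columns were assigned to groups by genotype in their names (FF, FCRE), and the numbers in those names are not the replicate numbers of the labels.

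Each library shared 1 lowest value (0.0584 CPM after antilog). With that offset removed, 100.0% of values lay within 0.01 of a whole read. Because the table holds log2 values, limma 3.58.1 (R 4.3.3) with an intensity trend was fitted on log2(CPM + 1) to the 13885 genes that averaged 1 CPM or more, with no covariate, and p-values were adjusted by Benjamini-Hochberg over all of them. This scale understates changes of low genes, such as Nckap1l, at 0.63 here against 0.81 in the authors' deposited table. The fit was tested on simulated data. Intervals cover 95%. Groups of 3 cannot reach an exact permutation p below 0.1. Where counting errors are given, they cover counting only.

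The members and lists were chosen with earlier results of these data known. The named genes are all members, Cap1, the called genes of 4 lists (or the 2 with the largest change where none was called) and the 3 genes nearest in pattern to the member with the largest change. Gene positions came from RefSeq (GRCm38.p6) by gene number, and exon lengths from GENCODE M21 by Ensembl number, for all 10 members. Alternatives were other size factors, scaling to total reads, limma-voom, no filter, a pseudocount of 0.1, the deposited values, the Xist level as a covariate and each library left out; FF2 or FF4 as the only Control library were chosen after seeing the data. The test of 1 microglial marker is not reported here. Plots were made in matplotlib 3.10.9 under Python 3.11.15. Reads shared between the paralogs, or between genes that overlap, cannot be traced, since the counting is not stated.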

Additional observations from a re-analysis of the deposited data

How the results depend on the processing

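With all 6 libraries and every change of scaling, pseudocount, filter or test that was run, 0 members were called, and none was called higher in any of the 15 alternatives. Members called lower ranged from 0 to 5 as each library was left out, with 5 without FF4 only, and numbered 3 against FF2 alone. The sign of Wasf2 reversed against FF4 alone (0.096). That of Cyfip1 reversed with total reads (0.042) and against FF4 alone (0.079), and ran from -0.077 to 0.013 as each library was left out; that of Brk1 ran from -0.00087 to 0.018. The paralog ratios kept their directions in the 8 alternatives run for each. Over all genes 78 rose and 56 fell with all libraries, against 68 and 20 with no filter, 23 and 3 with the Xist covariate, and, with 1 library left out, 36 and 6 (FF1), 49 and 11 (FF2), 1299 and 2623 (FF4), 62 and 7 (FCRE3), 78 and 175 (FCRE4) or 33 and 3 (FCRE5), then 626 and 1185 against FF2 alone, and 43 and 12 against FF4 alone. The cause of these shifts was not tested. A quasi-likelihood count test, planned only for a table of counts, was not run, because the table holds log2 values. No paired analysis was possible because the library numbers of the groups have only 1 number in common and are not the replicate numbers of the labels. With 823 to 11718 reads a member and library, the spread of Control was above the counting error in all members but Abi1 and Brk1.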
